A study of Mus musculus with 12 samples.

Results

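The Fc receptor genes described here are Fcgr1, Fcgr3, Fcgr4, Fcgr2b, Fcer1g and Fcgrt, 6 of the 27179 genes counted in macrophages sorted from the mammary ducts of female C57BL/6 mice. They were chosen by symbol, with the levels of these same libraries already known, so their levels by stage are given as a description and carry no test. RNA was sequenced from virgin mice, mice at day 16.5 of pregnancy, lactating mice and mice 1 month past weaning. There were 12 libraries, 3 of each stage, which the labels call biological replicates, and no genotype or treatment is named. The age of the mice, the day of lactation, the gate used for sorting and whether animals were pooled were not given in the sources used here.

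Fc receptors bind the constant part of antibodies. Of the mouse receptors for IgG, Fcgr1, Fcgr3 and Fcgr4 encode activating ligand-binding alpha chains that signal through a common gamma chain, encoded by Fcer1g, whose cytoplasmic ITAM (immunoreceptor tyrosine-based activation motif) recruits the kinase Syk. Fcgr2b encodes the inhibitory receptor, which carries an ITIM (immunoreceptor tyrosine-based inhibition motif) in its own tail and recruits phosphatases. Fcgrt encodes the heavy chain of the neonatal Fc receptor FcRn, an MHC class I-like protein that pairs with beta-2 microglobulin, binds IgG in acidic endosomes and returns it to the cell surface, and is known for moving maternal IgG to the young and for prolonging the life of IgG in the adult.

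The 2 signalling motifs that separate the activating and inhibitory arms are shown as coding sequence, since the tyrosine codons, in capitals, are what the kinases act on. Both are from GENCODE vM21 on GRCm38, in the direction of the transcript. The Fcgr2b stretch lies in 1 exon on the minus strand at chr1:170961062-170961097. The Fcer1g stretch spans 2 exons on the minus strand between chr1:171229880-171230081.
Fcgr2b, ITIM: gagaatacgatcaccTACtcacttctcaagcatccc
Fcer1g, ITAM: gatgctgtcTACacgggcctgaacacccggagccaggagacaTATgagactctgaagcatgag
The Fcgr2b stretch holds 1 tyrosine codon in capitals, and the Fcer1g stretch holds a pair of them.

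Fcgr2b and Fcgr3 are close relatives, and the next sequences are shown because reads from this stretch could be assigned to either gene. Their coding sequences were identical at 658 of 784 aligned bases (83.9%), against 58.6% to 63.5% for the other 5 pairs of alpha chain genes. A block of 159 coding bases in each gene holds only 2 differences, in capitals, and a run of 129 bases without any. The Fcgr2b block lies in 2 exons between chr1:170966659-170968096 and the Fcgr3 block in 2 exons between chr1:171054152-171057807, both on the minus strand of GRCm38.
Fcgr2b: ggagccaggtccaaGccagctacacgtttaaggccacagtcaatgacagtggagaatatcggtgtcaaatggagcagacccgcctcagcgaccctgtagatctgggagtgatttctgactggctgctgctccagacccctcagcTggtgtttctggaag
Fcgr3: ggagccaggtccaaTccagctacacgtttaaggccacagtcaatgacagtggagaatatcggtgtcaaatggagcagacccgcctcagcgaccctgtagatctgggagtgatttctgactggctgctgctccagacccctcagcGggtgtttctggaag
Of the 50-base windows along the coding sequence, 166 were shared, which is 17.1% of those of Fcgr2b and 22.1% of those of Fcgr3, and no other pair of alpha chain genes shared one. How the authors' counting treated reads that fit both genes was not given in the sources used here, so the counts of Fcgr2b and Fcgr3 are uncertain to that extent.

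The 6 genes sit at 3 places in the genome (GRCm38.p6, RefSeq). On chromosome 1 the order runs from Fcgr2b (170960558 to 170976071, minus strand) through Fcgr4 (171018926 to 171029761, plus strand) and Fcgr3 (171051169 to 171065915, minus strand) to Fcer1g (171229572 to 171234349, minus strand). Fcgr1 lies on chromosome 3 (96282909 to 96293969, minus strand) and Fcgrt on chromosome 7 (45092993 to 45103822, minus strand). All are protein-coding genes.

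The 250 bases before the start site of Fcgr4, Fcgrt and Fcgr1 are shown because the first 2 differed most between stages and Fcgr1 among the least (RefSeq, GRCm38.p6, direction of the transcript). Capitals mark matches, on either strand, to the letters GAGGAA (the PU.1 core), TTCNNNGAA (the gamma-activated site core) and TTGCNNAA (the C/EBP core).
Fcgr4, chr1:171018676-171018925, plus strand: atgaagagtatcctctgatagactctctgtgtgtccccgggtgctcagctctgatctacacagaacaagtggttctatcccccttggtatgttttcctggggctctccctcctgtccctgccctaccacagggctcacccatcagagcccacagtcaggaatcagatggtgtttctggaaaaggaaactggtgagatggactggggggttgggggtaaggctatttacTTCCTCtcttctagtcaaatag
Fcgrt, chr7:45103823-45104072, minus strand: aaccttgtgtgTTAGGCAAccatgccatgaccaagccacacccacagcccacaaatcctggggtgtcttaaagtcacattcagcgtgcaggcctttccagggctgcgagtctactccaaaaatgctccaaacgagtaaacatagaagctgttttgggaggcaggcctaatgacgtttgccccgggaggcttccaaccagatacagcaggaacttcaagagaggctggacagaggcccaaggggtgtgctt
Fcgr1, chr3:96293970-96294219, minus strand: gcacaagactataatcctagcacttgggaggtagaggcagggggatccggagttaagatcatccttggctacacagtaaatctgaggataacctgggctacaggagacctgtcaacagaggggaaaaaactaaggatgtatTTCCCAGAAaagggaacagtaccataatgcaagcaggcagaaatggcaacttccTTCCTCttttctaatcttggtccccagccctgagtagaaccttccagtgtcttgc
In windows of 300 bases that also take in 50 bases after the start, GAGGAA was found in Fcgr4 (22 bases before the start), Fcgr1 (55 bases before) and Fcgr3 (both of its listed starts), and in 28.3% of 32851 promoters of the same length. TTCNNNGAA was found in Fcgr1 alone of the 6 genes (109 bases before the start), and in 8.3% of all promoters. TTGCNNAA was found in Fcgrt (239 bases before the start) and Fcgr3, and in 10.8% of all promoters. The letters overlapped at none of these matches. A match describes the letters and not a bound site.

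Library totals ran from 6926273 to 21204704 counts, and the 6 genes had between 236 and 39028 counts in a library, with no count of 0. As PCR copies count as reads, these counts do not give the error of sampling molecules, which was not estimated. All 11 macrophage markers were detected at every stage, though Mertk only at 7.79, 0.73 and 0.0876 CPM in lactation. They summed to 14212 to 16790 CPM in virgin, 36981 to 40724 in pregnancy, 9294 to 25409 in lactation and 18978 to 23342 after weaning. The sum is dominated by Lyz2, at 3922 ± 1315 CPM in virgin and 26161 ± 1628 in pregnancy. The median log2 fold change of the 11 markers was -0.06 in pregnancy against virgin, so the higher sum does not describe the list as a whole. Lactating replicate 3 stood apart: its mean correlation with its own stage was 0.713, against 0.778 and 0.781 for the other two, milk protein genes took 7.38% of its counts against 0.17% and 0.181%, the noncoding RNA Malat1 stood at 40881 CPM against 9541 and 13175, and its summed macrophage markers were the lowest of all libraries at 9294 CPM. The main lactation values of the receptors are therefore also given without it, and the part of milk and other transcripts in its values was not tested. CPM, computed here, are counts scaled to a common TMM-adjusted library size. Stage levels are mean ± SD with n = 3, and differences between stages are edgeR log2 estimates ± SE.

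**Figure D1:**
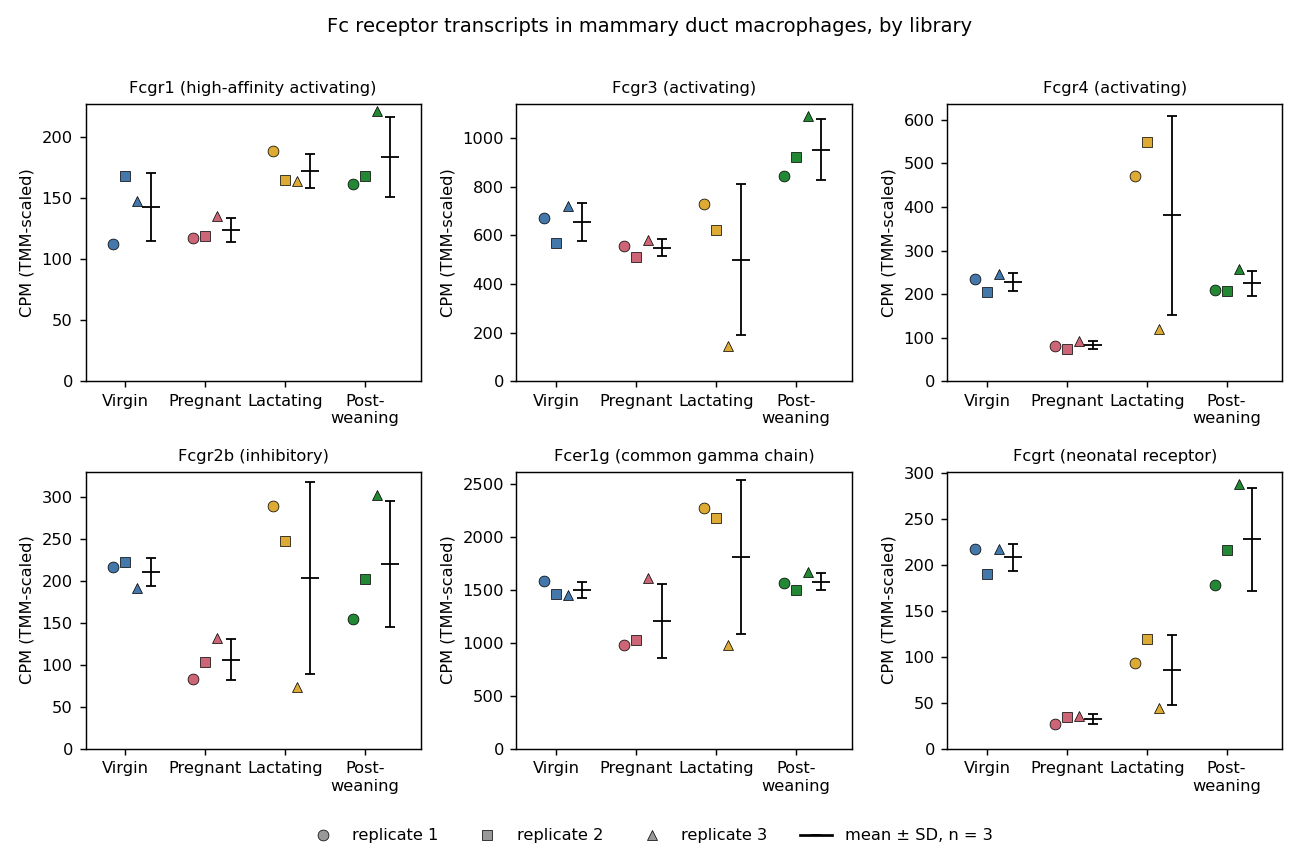
CPM of the 6 Fc receptor genes (vertical axes, linear from 0) in each library by stage, with mean ± SD at the right of each group. Fcgrt and Fcgr4 were lowest in the pregnant libraries, and Lactating replicate 3 (triangle) lay below the other 2 lactating libraries for all genes, though for Fcgr1 only at 164 against 165 and 188.

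The receptor that differed most was the neonatal one. Fcgrt stood at 217, 191 and 217 CPM in the virgin libraries, 26.2, 34.5 and 35.9 in the pregnant, 93.4, 119 and 43.8 in the lactating and 178, 216 and 288 in the post-weaning libraries. The pregnant libraries were all below every other library, the lactating libraries lay between them and the rest, and the virgin and post-weaning libraries overlapped. The stage means were 208 ± 15.2 CPM in virgin, 32.2 ± 5.25 in pregnancy, 85.5 ± 38.3 in lactation and 228 ± 56 after weaning, so the pregnant mean was 6.46-fold below the virgin mean (log2 fold change -2.69 ± 0.34).

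Compared with pregnancy, Fcgrt was higher by 1.40 ± 0.33 on the log2 scale in lactation and by 2.82 ± 0.35 after weaning. Lactation remained below virgin by -1.29 ± 0.33, and post-weaning stood 0.13 ± 0.32 from virgin. Without Lactating replicate 3 the lactating mean was 106 CPM, and the values were 1.67 against pregnancy and -1.02 against virgin. Per kilobase, Fcgrt ranked 577th of 12672 tested genes in virgin, 3140th in pregnancy, 1501st in lactation and 508th after weaning.

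B2m, which encodes beta-2 microglobulin, the partner of FcRn, stood at 6698 ± 1275 CPM in virgin, 10160.5 ± 946 in pregnancy, 6236 ± 3223 in lactation (8091 without replicate 3) and 6495 ± 321 after weaning, and its lowest adjusted p in the 6 comparisons was 0.318. Per kilobase, Fcgrt amounted to 1.57% ± 0.28 of B2m in virgin, 0.156% ± 0.021 in pregnancy, 0.717% ± 0.135 in lactation and 1.74% ± 0.47 after weaning. Each lactating library, including replicate 3 at 0.857%, lay above each pregnant library (0.138% to 0.18%) and below each virgin library (1.32% to 1.88%).

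Of the activating alpha chains, Fcgr4 varied most. It encodes the receptor FcγRIV, which binds IgG2a and IgG2b, and stood at 234, 206 and 246 CPM in virgin, 81.5, 73.2 and 92.7 in pregnancy, 472, 550.0 and 121 in lactation and 209, 208 and 257 after weaning. All pregnant libraries were below all others, and 2 of the 3 lactating libraries were above all others, while Lactating replicate 3 lay between the pregnant and the virgin libraries.

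The log2 fold change of Fcgr4 was -1.47 ± 0.41 for pregnancy against virgin, a 2.77-fold lower level, and 2.21 ± 0.42 for lactation against pregnancy. It was 0.73 ± 0.41 for lactation against virgin and -0.76 ± 0.41 for post-weaning against lactation. Without Lactating replicate 3 these last 3 values were 2.58, 1.11 and -1.12. Post-weaning stood -0.03 ± 0.41 from virgin, a sign that turned in 4 of 17 alternative settings.

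Fcgr3, the low-affinity activating receptor and the most abundant alpha chain gene per kilobase, stood at 671, 569.9 and 722 CPM in virgin and 554, 510.4 and 580.2 in pregnant libraries. It was at 728, 623 and 146 in lactation and 845, 921 and 1092 after weaning. Only the post-weaning group lay above all other libraries, at 953 ± 127 CPM against 654 ± 77.4 in virgin, 548 ± 35.2 in pregnancy and 499 ± 311 in lactating libraries. Its log2 fold change after weaning was 0.54 ± 0.42 against virgin, 0.80 ± 0.43 against pregnancy and 0.93 ± 0.43 against lactation. Without Lactating replicate 3 the last value was 0.56, lactation against pregnancy turned from -0.14 to 0.25, and lactation against virgin moved from -0.39 to -0.00.

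Fcgr1, the high-affinity receptor for monomeric IgG, varied least. It stood at 113, 168 and 148 CPM in virgin, 117, 119 and 135 in pregnancy, 188, 165 and 164 in lactation and 162, 168 and 221 after weaning. The lactating and post-weaning libraries were all above the pregnant ones, and the virgin libraries overlapped every other stage. The log2 fold changes lay between -0.21 ± 0.21 (pregnancy against virgin) and 0.57 ± 0.21 (post-weaning against pregnancy). Lactation against pregnancy was 0.48 ± 0.21, 0.46 without Lactating replicate 3 and 0.19 where library totals were not scaled.

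Fcgr2b, the inhibitory receptor, stood at 217, 223 and 191 CPM in virgin, 82.9, 103 and 132 in pregnancy, 289.6, 248 and 72.9 in lactation and 155, 203 and 303 after weaning. The pregnant libraries were all below the virgin and the post-weaning libraries, and Lactating replicate 3 was the lowest of all 12. Pregnancy stood -0.99 ± 0.42 from virgin on the log2 scale, and post-weaning 1.05 ± 0.42 from pregnancy. Lactation stood -0.05 from virgin and 0.94 ± 0.42 from pregnancy, which became 0.31 and 1.29 without Lactating replicate 3.

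Fcer1g, the signalling gamma chain, was the most abundant of the 6 genes per kilobase in all 12 libraries. It stood at 1586, 1464 and 1453 CPM in virgin, 981, 1030.1 and 1614 in pregnancy, 2277, 2183 and 977 in lactation and 1569, 1504 and 1666 after weaning. Its stages overlapped except for lactation without its replicate 3, whose libraries were the highest of all. The log2 fold changes lay between -0.31 ± 0.30 (pregnancy against virgin) and 0.58 ± 0.30 (lactation against pregnancy), the latter 0.83 without Lactating replicate 3. Tyrobp, which encodes DAP12, the other ITAM adaptor of myeloid cells, had a lowest adjusted p of 0.88.

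**Figure D2:**
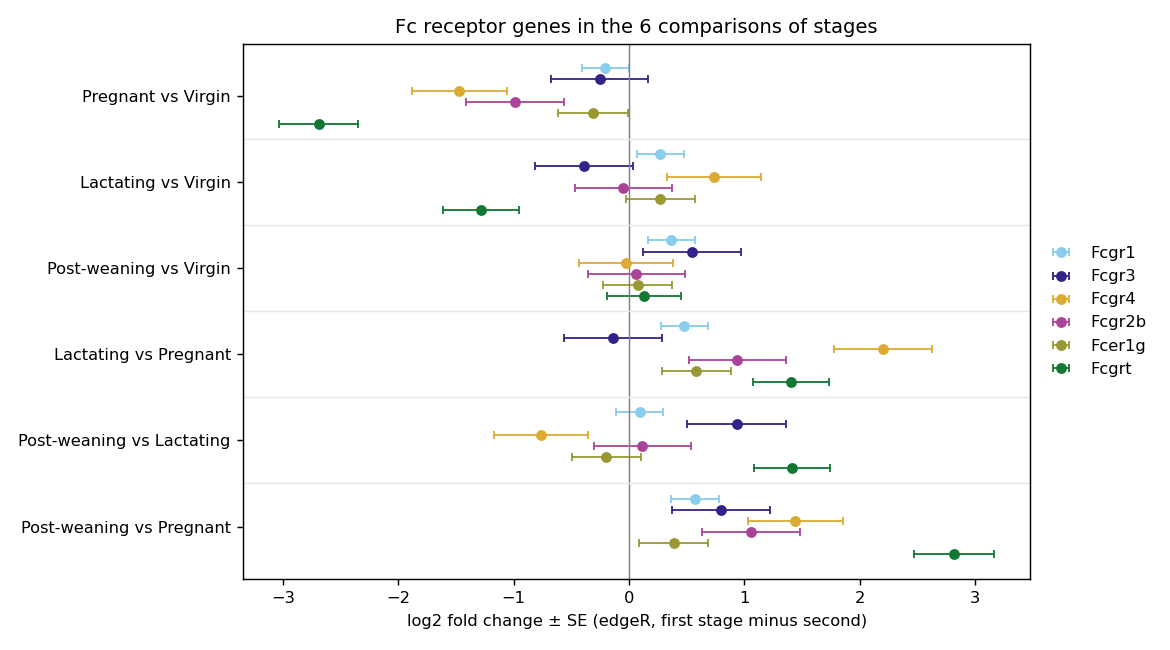
Log2 fold changes (horizontal axis, edgeR estimate ± SE) of the 6 genes in each pair of stages, first stage minus second. Fcgrt and Fcgr4 lie farthest below 0 in pregnancy against virgin (-2.69 and -1.47), and in post-weaning against virgin the 6 lie between -0.03 (Fcgr4) and 0.54 (Fcgr3).

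The libraries of pregnancy and virgin did not overlap for 3 of the 6 genes (Fcgr2b, Fcgr4 and Fcgrt), all lower in pregnancy, where 10.7% of the 12672 tested genes were lower without overlap. Fcgrt alone was lower without overlap in lactation than in virgin libraries, against 9.34% of all tested genes. Fcgr3 alone was higher after weaning than in virgin libraries, against 8.83%. In lactation against pregnancy 3 genes (Fcgr1, Fcgr4 and Fcgrt) were higher, against 9.5%. After weaning 2 (Fcgr3 and Fcgrt) were higher than in lactation, against 12.8%, and 5 (all but Fcer1g) were higher than in pregnancy, against 14%. Since the genes were chosen with these values in view, nothing is read from these counts. As the libraries are bulk samples, fewer cells of a type and less RNA per cell cannot be told apart.

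Ratios between the genes within a library do not depend on the scaling between libraries. Per kilobase, Fcgr4 stood at 0.379 ± 0.011 of Fcgr3 in virgin, 0.162 ± 0.009 in pregnancy, 0.851 ± 0.133 in lactation and 0.255 ± 0.012 after weaning. The values were 0.378, 0.391 and 0.369 in virgin, 0.159, 0.155 and 0.173 in pregnancy, 0.701, 0.956 and 0.897 in lactation and 0.267, 0.244 and 0.254 after weaning. No stage overlapped another, and Lactating replicate 3, low for both genes, fell between the other 2 lactating libraries. Of the ratios given here, only that of activating to inhibitory chains was planned. How often other pairs of genes show no overlap was not computed, so nothing is read from it. The uncertainty of the Fcgr3 counts applies here too.

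**Figure D3:**
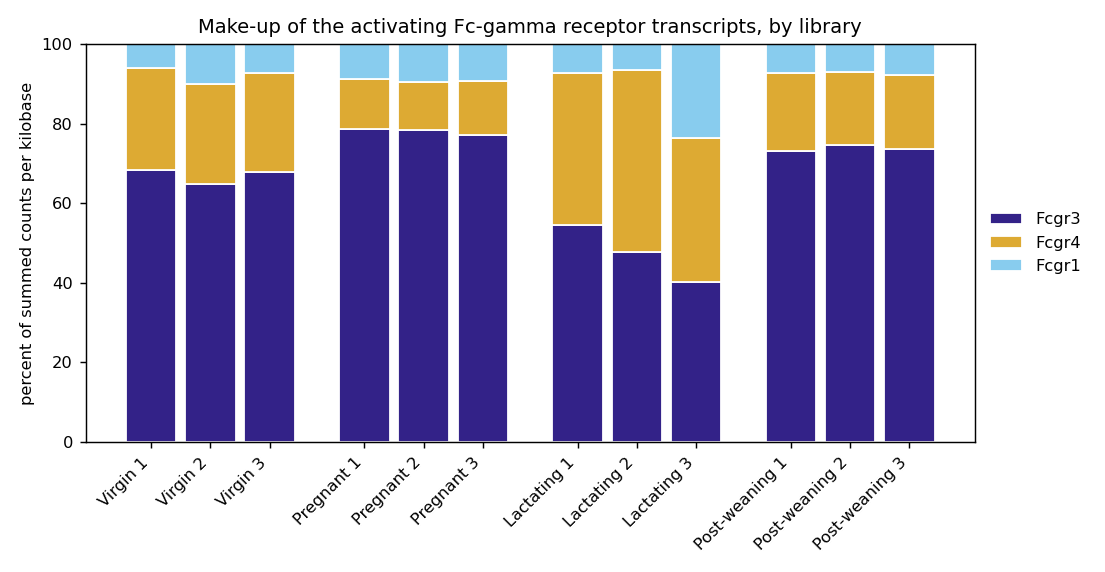
Percent of the summed counts per kilobase of the 3 activating alpha chain genes (vertical axis) contributed by each, by library. Fcgr4 made up 12.2% to 13.4% in the pregnant libraries and 36.1% to 45.6% in the lactating libraries.

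Of the summed activating alpha chains, Fcgr4 made up 25.4% ± 0.4 in virgin, 12.7% ± 0.62 in pregnancy, 40.0% ± 5.02 in lactation and 18.8% ± 0.67 after weaning. Fcgr3 made up 66.9% ± 1.9, 78.1% ± 0.78, 47.5% ± 7.11 and 73.8% ± 0.79 in the same order. Fcgr1 made up 5.98% to 9.97% in 11 libraries and 23.7% in Lactating replicate 3, where the other two alpha chains were low and Fcgr1 was not.

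The activating-to-inhibitory ratio, the 3 activating alpha chains over Fcgr2b per kilobase, was 5.35 ± 0.94 in virgin, 7.81 ± 1.67 in pregnancy, 5.66 ± 0.37 in lactation and 7.03 ± 1.45 after weaning. The pregnant libraries stood at 9.7, 7.25 and 6.5, all above the virgin libraries at 5.18, 4.51 and 6.37, while the post-weaning libraries (8.52, 6.96 and 5.61) overlapped both. The lactating libraries, at 5.28, 6.02 and 5.67, lay within the virgin range. Relative to the 3 activating alpha chains summed, without Fcgr2b, Fcer1g stood at 3.18 ± 0.33 in virgin and 3.51 ± 0.81 in pregnancy. It stood at 4.17 ± 1.2 in lactation (3.47 without replicate 3) and 2.53 ± 0.24 after weaning.

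**Figure D4:**
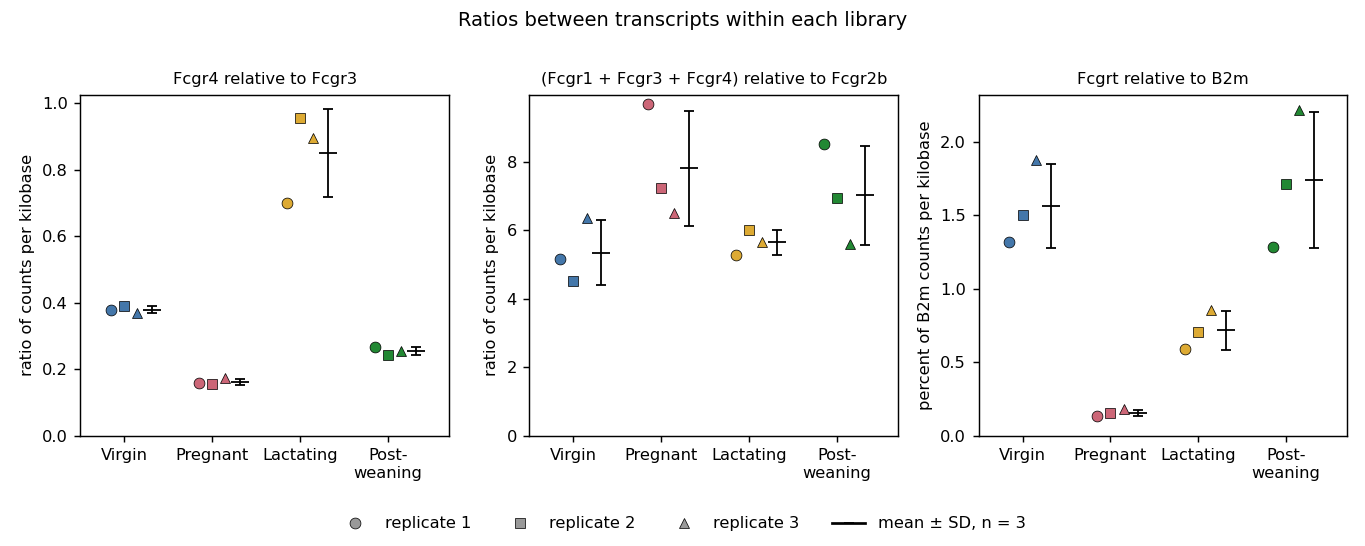
Ratios of counts per kilobase in each library by stage, with mean ± SD: Fcgr4 to Fcgr3, the summed activating alpha chains to Fcgr2b, and Fcgrt as a percent of B2m. The Fcgr4 to Fcgr3 ratio does not overlap between any 2 stages, and Fcgrt to B2m is lowest in pregnancy (0.156% ± 0.021). Only the ratio to Fcgr2b was planned.

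Per kilobase, Fcer1g was first and Fcgr3 second in all 12 libraries. The next place was taken by Fcgr4 in 10 libraries and by Fcgr2b in the other 2, both pregnant, where the 2 genes differed by less than their spread (66.0 ± 7.83 and 68.5 ± 16 CPM per kilobase in pregnancy). Fcgrt was last in the 3 pregnant libraries and in 2 lactating libraries, and Fcgr1 was last in the rest.

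The genes around the receptors were taken from 7 lists of 116 genes, of which 103 were tested with edgeR, and adjusted p-values are from that test over all 12672 genes. In pregnancy against virgin, 6 passed (5.83%), against 1.32% of all genes: 1 rose and 5 fell. In lactation against virgin 4 passed (3.88%, against 1.94% of all genes) and in lactation against pregnancy 10 (9.71%, against 3.85%). In post-weaning against lactation 1 passed (0.971%, close to the 0.923% of all genes) and in post-weaning against pregnancy 2 (1.94%, against 0.718%). The test of any difference between stages passed 8 (7.77%, against 3.35%). A gene that does not pass is not thereby shown to be unchanged. None passed in post-weaning against virgin, where 0% of all genes did, 7 of the listed genes had an unadjusted p under 0.05, and DESeq2 called 1. Without Lactating replicate 3 the counts were 9, 8, 18, 2, 9 and 17 in the order just given, with any difference last. Leaving out any 1 of the other 11 libraries gave 0 to 4 in pregnancy against virgin, 1 to 4 in lactation against virgin, 0 to 4 in post-weaning against pregnancy and 2 to 8 for any difference. In lactation against pregnancy it gave 10 or 11, except for 6 without Pregnant replicate 1 or 2.

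Among 14 regulators of Fc receptor genes, 3 fell in pregnancy against virgin (21.4%, against 1.32% of all genes called in either direction), and in lactation against pregnancy 2 rose and 1 fell (21.4%, against 3.85%). Cebpb, the transcription factor C/EBPβ, stood at 1037 ± 268 CPM in virgin, 481 ± 118 in pregnancy, 1574 ± 167 in lactation and 1368 ± 50.9 after weaning. Its log2 fold change was -1.11 ± 0.24 for pregnancy against virgin (adjusted p = 0.0471), 1.71 ± 0.24 for lactation against pregnancy (adjusted p = 0.0026) and 1.51 ± 0.24 for post-weaning against pregnancy (adjusted p = 0.0184). All 3 pregnant libraries were below all others. The call in lactation against pregnancy was kept with each of the 12 libraries left out in turn. The call in pregnancy against virgin was lost in 10 of these 12 fits and the one in post-weaning against pregnancy in 5, up to adjusted p = 0.231 and 0.132, both without Pregnant replicate 2. The lactating mean was 1659 CPM without Lactating replicate 3.

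Irf1, an interferon-induced transcription factor, was at 122, 92.8 and 84.9 CPM in the pregnant libraries, below all 9 others, which ran from 163 to 299.9. It fell in pregnancy against virgin (-1.13 ± 0.24, adjusted p = 0.043) and rose in lactation against pregnancy (1.48 ± 0.24, adjusted p = 0.0055). Il10ra, a chain of the interleukin 10 receptor, fell in pregnancy against virgin (-1.08 ± 0.21, adjusted p = 0.0318) and was higher after weaning than in pregnancy (1.13 ± 0.21, adjusted p = 0.0344). When each library was left out in turn, the pregnancy against virgin call was lost in 10 of 12 fits for Irf1 (up to adjusted p = 0.203) and 9 for Il10ra (up to 0.171), and the post-weaning call of Il10ra in 10 (up to 0.211), each highest without Pregnant replicate 2. Ifngr1, a chain of the interferon gamma receptor, fell in lactation against pregnancy (-1.29 ± 0.28, adjusted p = 0.0265, and -1.17 with adjusted p = 0.0332 without Lactating replicate 3), a call lost in 2 of the 12 fits (up to 0.13, without Pregnant replicate 2). The lowest adjusted p of Spi1, which encodes PU.1, was 0.059 and of Irf8 0.36. Medians over the 14 were -0.57 in pregnancy against virgin and 0.59 in lactation against pregnancy, against 0.03 and -0.14 over all tested genes.

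**Figure D5:**
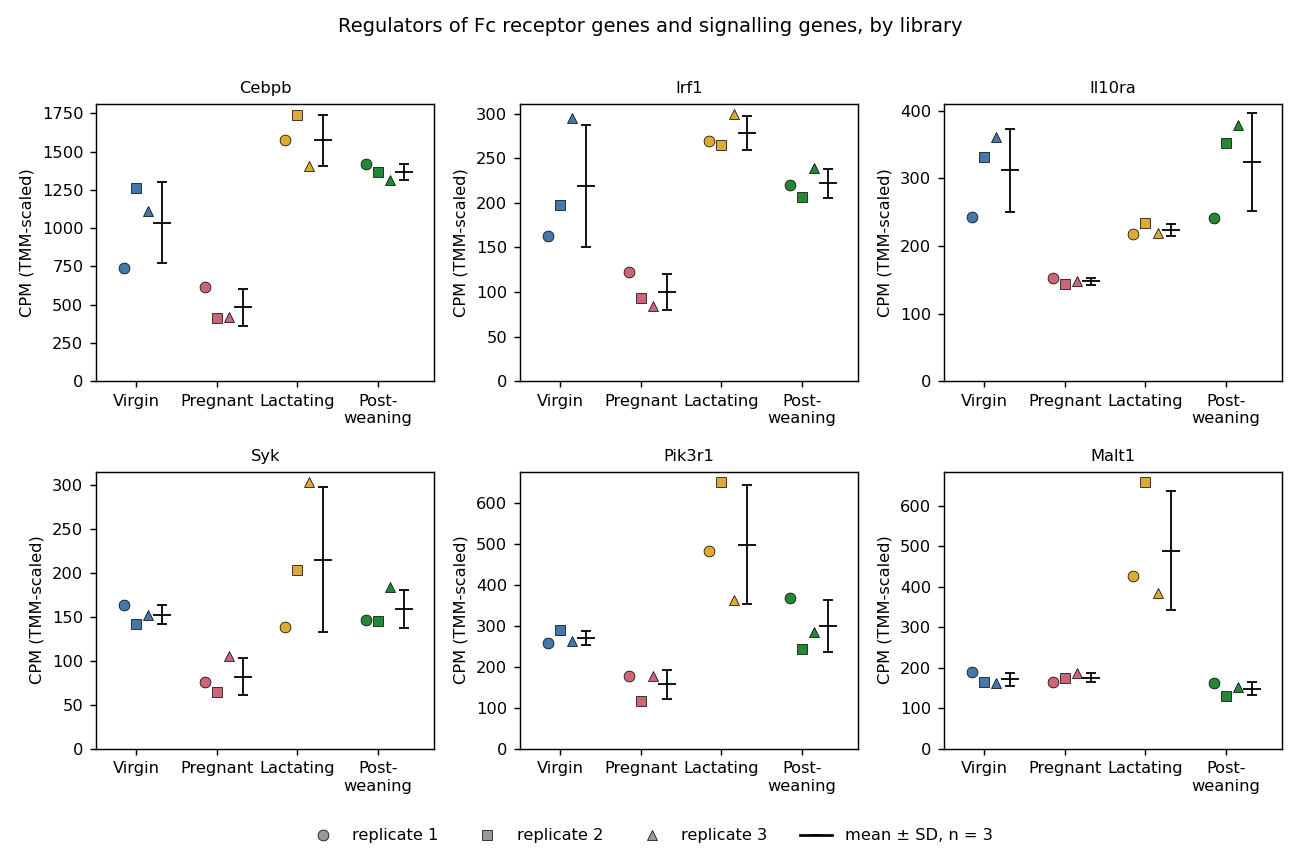
CPM (vertical axes, linear from 0) by library and stage, with mean ± SD, of 3 regulators (Cebpb, Irf1, Il10ra) and 3 signalling genes (Syk, Pik3r1, Malt1). Malt1 is higher in the 3 lactating libraries (383 to 658) than in the other 9, and Cebpb is lowest in the pregnant libraries.

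Of 24 genes that act downstream of the ITAM, 5 rose and none fell in lactation against pregnancy, where 2.65% of all tested genes rose. Syk, the kinase that binds the ITAM, stood at 153 ± 10.7 CPM in virgin, 81.9 ± 20.8 in pregnancy, 215 ± 82.9 in lactation and 159 ± 21.7 after weaning, and rose by 1.39 ± 0.29 (adjusted p = 0.0191). Without Lactating replicate 3, its highest library, the lactating mean was 171 CPM and the rise 1.01 (adjusted p = 0.0407), and the call was lost in 2 of the 12 leave-one-out fits (up to 0.107, without Pregnant replicate 2). Pik3r1, a regulatory subunit of PI3-kinase, rose by 1.67 ± 0.26 (adjusted p = 0.00483). Malt1, a protease of the CARD9 signalling complex, rose by 1.49 ± 0.22 (adjusted p = 0.00347), stood higher in lactation than in virgin libraries by 1.51 ± 0.22 (adjusted p = 0.00589) and fell after weaning by 1.73 ± 0.22 (adjusted p = 0.00572). These values of Malt1 were 1.58, 1.61 and -1.82 without Lactating replicate 3. The adaptor Sh3bp2 and the exchange factor Vav3, named after their values were seen, rose by 1.58 ± 0.28 and 2.63 ± 0.53 (1.43 and 2.44 without Lactating replicate 3), and the call of Vav3 was lost in 4 of the 12 fits (up to adjusted p = 0.093, without Pregnant replicate 2). Median log2 fold changes of the 24 were -0.28, 0.19 and 0.52 in pregnancy against virgin, lactation against virgin and lactation against pregnancy. Lyn, a Src family kinase, passed in no comparison (lowest adjusted p = 0.262).

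Of the 11 genes that act with the ITIM, none passed in any of the 6 comparisons by edgeR. From 0% to 3.85% of all genes passed in these comparisons, so a count of 0 in so short a list tells little. Inpp5d, which encodes the phosphatase SHIP-1, had a lowest adjusted p of 0.252, and Ptpn6, which encodes SHP-1, of 0.302. DESeq2 called 0 of the 11 in each comparison, and unadjusted p was under 0.05 for at most 3 of the 11, in lactation against pregnancy.

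Of 23 engulfment and actin genes, Rac2, a GTPase of phagocytes, passed in lactation against pregnancy, higher by 1.69 ± 0.26 (adjusted p = 0.00453), which is 4.35% of the list against 3.85% of all genes. Coro1a, an actin-binding protein, passed in lactation against virgin, higher by 0.83 ± 0.18 (adjusted p = 0.0373), against 1.94% of all genes. The call of Rac2 was kept with each library left out, while that of Coro1a was lost in 10 of 12 such fits (up to adjusted p = 0.135, without Virgin replicate 2) and none of the listed genes passed in a fit to those 2 stages alone. Of 22 tested genes for sorting FcRn through endosomes, 1 (4.55%) passed in lactation against pregnancy, against 3.85% of all genes. It was Snx2 (-0.97 ± 0.19, adjusted p = 0.0149), whose call was lost in 2 of the 12 fits (up to 0.0885, without Pregnant replicate 2), and Rab11a, a recycling endosome GTPase, had a lowest adjusted p of 0.383. Of the 4 tested receptors that pair with the gamma chain, 1 (25%) was called in pregnancy against virgin, against 1.32% of all genes. It was Clec4n, which encodes dectin-2 (2.27 ± 0.45, adjusted p = 0.0359), at 577 ± 112 CPM in pregnancy against 119.8 ± 27.5 in virgin. That call was lost in 10 of the 12 fits (up to adjusted p = 0.158, without Virgin replicate 2).

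Of 14 other genes that bind antibody or resemble Fc receptors, 5 passed the low-count filter, and Fcer1a, Fcer2a, Ms4a2, Fcmr and Cd209b had 0 counts in all 12 libraries. Fcrls, an Fc receptor-like gene of macrophages, was at 4.35, 47.3 and 31.2 CPM in virgin and 24, 7.03 and 5.09 after weaning and at 0 in all pregnant and lactating libraries. In pooled counts it was at least 424-fold lower in pregnancy and 229-fold lower in lactation than in virgin, against a floor of 3 counts a stage (adjusted p = 0.0318 in each). These calls were lost in 8 and 6 of the 12 leave-one-out fits (up to adjusted p = 0.124, without Pregnant replicate 3, and 0.0831, without Virgin replicate 2). Fcrl1, a further Fc receptor-like gene, stood at 41.4, 42.8 and 80.4 CPM in virgin, 14, 22.7 and 11.2 in pregnancy, 46.7, 44 and 0.351 in lactation and 26.8, 52.9 and 69.3 after weaning. Its pregnant libraries were all below the virgin and the post-weaning ones, and its lowest adjusted p was 0.563. The cytosolic antibody receptor gene Trim21 stood at 10.4 ± 10.8, 10.7 ± 3.05, 2.91 ± 4.82 (4.24 without Lactating replicate 3) and 7.23 ± 3.24 CPM.

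Markers of other cells that carry Fc receptors are given here by their summed CPM. The B and plasma cell list ran from 193 to 524 CPM outside lactation and from 352 to 2385 in it, with Pax5 and Fcer2a at 0 at every stage. Cd79b, a B cell receptor chain, was at 31.9, 21.2 and 36.1 CPM in virgin, 3.33, 1.72 and 0.868 in pregnancy, 1.9, 0.182 and 0 in lactation and 5.94, 25.3 and 26.4 after weaning, so that, as for Fcgrt, its pregnant libraries were all below the virgin and the post-weaning ones. The 5 tested genes of the list did not move together. Ighm was also lower in pregnancy than in virgin (189 ± 37.1 against 326 ± 86.2 CPM). Cd22 (23.5 ± 6.74 against 16.2 ± 1.88) and Ms4a1 (2.63 ± 2.93 against 0) were higher, and Jchain was at 0 in both stages. Igkc was at 806 and 234 CPM in Lactating replicates 2 and 3 and at 0 in the first. The neutrophil list ran from 56.4 to 129 CPM, with S100a9, Ly6g, Retnlg, Ngp and Cxcr2 at 0 at every stage. Csf3r alone made up nearly all of it, with stage means from 73.1 to 84.7 CPM. The mast cell and basophil list reached at most 34.8 CPM, nearly all of it Kit, with Cpa3, Fcer1a, Ms4a2 and Mcpt8 at 0 throughout. The NK and T cell list reached at most 45.6 CPM. The monocyte list was 159 to 232 CPM in virgin, 76.5 to 118 in pregnancy, 7.19 to 111 in lactation and 80.5 to 162 after weaning. Most of it was Ccr2, at 194 ± 33.6 CPM in virgin and 91.7 ± 23.0 in pregnancy. The dendritic cell list was 106 to 214 CPM in virgin, 194 to 269 in pregnancy, 128 to 304 in lactation and 74.4 to 178 after weaning. In pregnancy its sum was mostly Siglech, at 204 ± 33.4 CPM against 90.9 ± 22.9 in virgin. The median log2 fold change of its 6 tested genes was -0.98 in pregnancy against virgin. The higher sum therefore does not describe that list as a whole.

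Lists for cells of the gland other than leukocytes also differed between libraries. The fibroblast list was 25.7 to 376 CPM in virgin, 2.33 to 6.57 in pregnancy, 0 to 21.7 in lactation and 39.2 to 159 after weaning, so that its pregnant libraries, too, were all below the virgin and the post-weaning ones, and Pdgfra was at 0 in all pregnant and lactating libraries. The endothelial list was 5.93 to 43.5 CPM in virgin, 8.88 to 11.8 in pregnancy, 3.98 to 213 in lactation and 14.3 to 54.1 after weaning. The luminal epithelial list was 96.9 to 670.0, 218 to 304, 89.4 to 264 and 199 to 778 CPM in that order of stages. In pregnancy its sum was mostly Epcam, at 189 ± 18.9 CPM against 38.8 ± 41.6 in virgin. The median log2 fold change of its 7 genes was -1.78 in pregnancy against virgin. The milk protein list was 0 to 79, 1616 to 13506, 2153 to 67562 and 432 to 1916 CPM in the same order of stages. The part of any of these cells in the Fc receptor values was not tested.

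The genes whose course over the 12 libraries was most like that of each receptor were found by the root mean square difference of centred log2 CPM, among 6959 genes. For Fcgr4 these were Cd14 (0.251), C3ar1 (0.268) and Dusp2 (0.274), and for Fcgr3 Vsir (0.249), Slc27a1 (0.282) and Maco1 (0.29). For Fcer1g they were Lyn (0.155), H2-Aa (0.187) and Havcr2 (0.19), for Fcgr1 Myl12a (0.168), Il10rb (0.187) and Tmed10-ps (0.187), and for Fcgr2b Ms4a7 (0.268), Rabgef1 (0.284) and Slamf9 (0.296). For Fcgrt the nearest, Osm, was at 0.491, followed by Emp3 (0.552) and Hepacam2 (0.571). Osm, the cytokine oncostatin M, stood at 184 ± 33.8 CPM in virgin, 49.3 ± 13.3 in pregnancy, 102 ± 39.5 in lactation and 181 ± 40.8 after weaning. Among the receptors themselves Fcgr1 and Fcer1g were closest (0.344) and Fcgr1 and Fcgrt farthest apart (1.08). These differences also depend on how much each gene varies. The root mean square about a gene's own mean was 0.281 for Fcgr1, 0.382 for Fcer1g and 0.657 for Fcgr2b. It was 0.695 for Fcgr3, 0.885 for Fcgr4 and 1.2 for Fcgrt. A small difference for Fcgr1 or Fcer1g thus need not mean a shared course, and values of different receptors are not directly comparable.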

How the data were processed

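Raw read counts per gene were deposited by the authors, whole numbers that are not normalized, made with featureCounts on mm10 per the submitters' processing notes. Per the labels' protocols, full-length cDNA came from sorted cells with the SMART-Seq v4 kit and was sequenced in 1 run. The aligner, the version of featureCounts and its strand mode were not given in the sources used here, and without molecular identifiers PCR copies count as reads. RefSeq symbols (GRCm38.p6) matched 25275 of 27179 genes (93.0%); unmatched ones took up to 0.82% of a library's counts. Samples were grouped by stage.

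Genes were filtered by filterByExpr (12672 left), scaled by TMM and fitted in edgeR 4.0.16 (R 4.3.3) with 1 quasi-likelihood model of all 12 libraries, and genes were called at a Benjamini-Hochberg adjusted p under 0.05. p-values measure only the spread between samples labelled biological replicates. The receptors and lists were chosen with earlier results of these data known. Named genes were the 6 receptors, 13 fixed genes, the 5 pathway genes with the smallest adjusted p in each comparison and the 3 genes nearest each receptor. Some genes that the rule takes are not reported here. Members named beside a count of 5 or fewer were chosen after their values were seen. Pattern likeness used a prior count of 2. The fit was tested on simulated counts. Alternatives were DESeq2 1.42.0, limma 3.58.1 voom with quality weights, other scalings and filters, a replicate block, a fit to 2 stages, and leaving out each library.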

Additional observations from a re-analysis of the deposited data

How the results depend on the processing

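Of 612 recomputed receptor fold changes, 611 moved by less than the spread between libraries of the 2 stages and 27 of 36 kept their sign over 17 settings; for Fcgr1, lactation against pregnancy fell from 0.48 to 0.19 with unscaled totals. The activating-to-inhibitory ratio ranged from 4.84 to 5.77 in virgin, 6.87 to 8.47 in pregnant, 5.48 to 5.84 in lactating and 6.29 to 7.74 in post-weaning libraries when each library was left out, and was 4.95 in lactation without Fcgr1 in the sum. Counts of pathway genes passing the test, in the order pregnant against virgin, lactating against virgin, post-weaning against virgin, lactating against pregnant, post-weaning against lactating, post-weaning against pregnant and any stage, were 6, 4, 0, 10, 1, 2 and 8. Leaving out each library they ranged 0 to 9, 1 to 8, 0 to 0, 6 to 18, 1 to 2, 0 to 9 and 2 to 17, and each maximum above 2 came without Lactating replicate 3. DESeq2 gave 11, 16, 1, 22, 8, 10 and 22. Quality weights gave 7, 24, 6, 13 and 17 in lactating against virgin, lactating against pregnant, post-weaning against lactating, post-weaning against pregnant and any stage. A fit to 2 stages gave 0, 3, 0 and 10 in the first 4 of those. RLE size factors gave 4 and the filter of 5 CPM in 3 libraries 5 in post-weaning against pregnant. No low-count filter gave 3, 2 and 2 in pregnant against virgin, lactating against virgin and post-weaning against lactating, and 3 in post-weaning against pregnant. The replicate block gave 0, 2, 0 and 3 in pregnant against virgin, lactating against virgin, post-weaning against pregnant and any stage. Same-numbered libraries correlated from -0.068 to 0.073 over 18 pairs, which gave no sign that the numbers pair samples but cannot exclude it. The cause of these differences was not tested. Malt1 in its 3 comparisons, and Cebpb, Rac2, Pik3r1, Irf1 and Sh3bp2 in lactating against pregnant, passed with each of the 12 libraries left out; each of the 6 calls in pregnant against virgin was lost in 8 to 10 of the 12, in post-weaning against pregnant Cebpb in 5 and Il10ra in 10, and in lactating against virgin Fcrls in 6, Coro1a in 10 and Sh3bp2 in 12.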
